A study of Mus musculus with 10 samples.

Results

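Genes for PIWI proteins and for the biogenesis of their small RNAs were followed in the transcriptome of mouse germ cells. The members were chosen by gene symbol and not by any measured value: Piwil1, Piwil2, Piwil4, Mael, Ddx4, Mov10l1, Asz1, Pld6, Henmt1 and Gtsf1. Of these 10 symbols, 9 had a row among the 15507 genes of the expression table, and Piwil4 was not analysed here. Germ cells were obtained by collagenase and trypsin dispersion from the testes of 5 wild type (WT) mice and 5 homozygous GRTH knock-in (KI) mice, all 45 days old. GRTH, encoded by Ddx25 in the mouse, is a testis DEAD-box RNA helicase. The knock-in allele is a human GRTH gene bearing an arginine-to-histidine missense mutation. The cells of each mouse gave 1 library of poly(A) RNA, read as paired ends, and each preparation held spermatogonia, spermatocytes and spermatids together.

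PIWI proteins are Argonaute-like nucleases that are loaded with piRNAs, small RNAs of the germ line that silence transposons and, in meiotic and haploid male germ cells, cleave or regulate many other transcripts. Long precursors are transcribed in spermatogonia and spermatocytes, fed by the helicase MOV10L1 to nucleases on the outer face of mitochondria, loaded into PIWI proteins, trimmed, and methylated at their end by HENMT1. Much of this takes place in germ granules such as the intermitochondrial cement and the chromatoid body. GRTH is itself known as a component of the chromatoid body.

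None of the 9 measured members was differentially expressed between KI and WT germ cells. The largest differences, on log2(normalized count + 1) as KI against WT, were those of Gtsf1 (−0.25) and Ddx4 (−0.25), and the largest in the other direction was that of Piwil2 (0.15). A normalized count is the number of reads of a gene divided by the size factor of its library. A gene was called differentially expressed when its adjusted p was below 0.05 and it changed by 1.5-fold or more (limma with a variance trend, Benjamini-Hochberg over 15389 tested genes), a rule that 14.4% of all tested genes met, 6.13% as higher and 8.22% as lower in KI. At an adjusted p under 0.05 alone, 0 of 9 members passed against 22.9% of all tested genes (9.65% higher, 13.3% lower), with adjusted p from 0.0889 to 0.955 in limma. At an unadjusted p under 0.05, 2 members passed, Ddx4 and Gtsf1. The edgeR quasi-likelihood test on the recovered reads gave 0 members at an adjusted p under 0.05, and DESeq2 gave 1, Ddx4 (adjusted p = 0.0491). With the library number as a block, limma gave 2, Ddx4 and Gtsf1, neither of which reached the fold limit. All 9 members passed the filter on low counts, with 273 to 22813 reads in any library. Ddx4 and Gtsf1 were also the only members, 2 of 9 (22.2%), whose libraries did not overlap between genotypes, both lower in KI, a share near that of all tested genes (17.7%, with 10.9% lower and 6.8% higher in KI).

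The intervals hold under the deposited size factors and for each member by itself. The 95% intervals of the 9 members ran from −0.47 to 0.33 on the log2 scale, a change of −27.9% to 25.8% relative to WT. Each stopped short of the 1.5-fold limit (0.58) on either side. Under other scalings the values moved, up to 0.38 for Piwil2 relative to library totals, and no intervals are given for them. Within a genotype the members varied little, with a coefficient of variation of 4.97% to 19.6% over 5 libraries. The median log2 fold change was −0.08 for the members and 0.03 for all tested genes, and the median size of the change was 0.10 against 0.21. Of the members, 7 had a lower mean log2 value in KI and 2 a higher one, but relative to library totals only Ddx4 and Gtsf1 were lower and the members' median was 0.15, where the median of all genes was 0.25. A p that misses the threshold does not show that the levels were alike.

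The preparations were compared with markers of testis cells. Ddx25, the targeted gene, had 8231 ± 2209 normalized counts in WT (SD, n = 5), whereas the KI libraries had 146, 194, 161, 2.88 and 1.84. Reads were aligned to the mouse genome, so these counts need not include transcripts of the human knock-in allele. The log2 fold change of Ddx25 was −7.84 (SE 1.03, limma adjusted p = 5.63e-05). KI libraries 4 and 5, with 3 and 2 reads, added to its size, and libraries 1 to 3 alone gave −5.34. It also moved with the pseudocount, to −7.04 at 10 and −8.03 at 0.1. Libraries 1 to 3 and libraries 4 and 5 of both genotypes also differ in mean read quality as the study lists it, and values within these sets are given where they change a result. Reads on genes numbered 13323024 to 16422347 in WT and 12722086 to 15500582 in KI. Markers of spermatocytes, in which most members are known to be transcribed, summed to 48712 to 54572 normalized counts in WT and 48125 to 59068 in KI, with 0 of 12 called (1 lower at an adjusted p under 0.05). Hspa2 alone made up 29644 to 38006 of these counts in WT and 28549 to 42545 in KI. The 9 spermatogonial markers overlapped as well, at 2349 to 3148 in WT and 2632 to 3077 in KI, with 0 called (1, Gfra1, lower at an adjusted p under 0.05). Round spermatid markers did not overlap in their sum, at 39343 to 54737 in WT and 14932 to 25223 in KI, with 3 of 7 called lower. Gapdhs alone made up 14160 to 26694 of these counts in WT and 3587 to 5218 in KI. Singly, 5 of the 7 did not overlap, whereas Acrv1 and Izumo1 did. Elongating spermatid markers were at 246791 to 440046 in WT and 37542 to 76177 in KI, with 9 of 9 called lower. Somatic markers were also present: macrophage markers did not overlap (654 to 878 in WT, 927 to 1332 in KI, 4 of 8 called higher), whereas Leydig cell markers (10124 to 17806 and 14556 to 25454, 3 of 6 called higher), peritubular myoid markers (120 to 208 and 191 to 236, 2 of 4 tested called higher) and Sertoli cell markers (2303 to 3603 and 2460 to 4051, 0 of 8 called) did. None of these markers was at 0 in any library. Their part in the values of the members was not tested, and in such mixed cells, fewer cells of a type and less RNA per cell cannot be told apart.

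**Figure D1:**
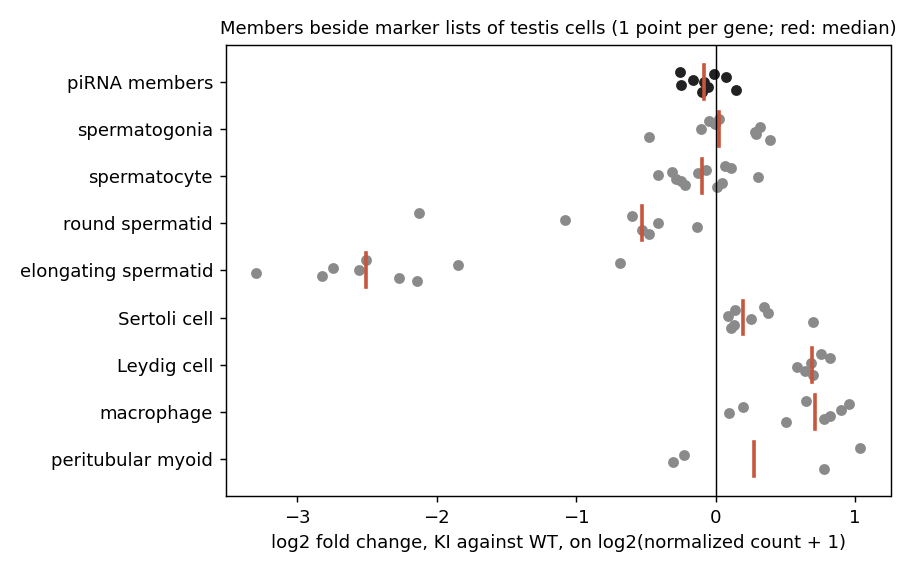
Log2 fold change of KI against WT on log2(normalized count + 1), with 1 point per gene and a red bar for the median of each list. The 9 members lie between −0.25 and 0.15, among the spermatogonial and spermatocyte markers, whereas the 9 elongating spermatid markers lie at a median of −2.50.

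Levels were compared between genes as normalized counts per kilobase of exon, with exon length taken from GENCODE models inside each gene's interval. Mael was the most abundant member at 12817 ± 1174 per kilobase in WT (SD, n = 5), at the 99.8 percentile of 15152 genes with an exon length. Ddx4 followed at 3127 ± 386, then Gtsf1 at 2382 ± 165 and Piwil1 at 2149 ± 243, and the last 2 overlapped between libraries. Pld6 (809 ± 126) and Piwil2 (715 ± 61.5) overlapped likewise, and Mov10l1 (347 ± 28.5), Henmt1 (283 ± 25.4) and Asz1 (128 ± 18.6, percentile 63.0) were the lowest, each apart from its neighbour in WT. In KI the means were 12327 per kilobase for Mael, 2622 for Ddx4, 2008 for Gtsf1, 2001 for Piwil1 and 848 for Pld6. They were 790 for Piwil2, 327 for Mov10l1, 282 for Henmt1 and 116 for Asz1, which is the WT order of means. Among KI libraries Gtsf1 (1560 to 2144) overlapped Piwil1 (1744 to 2184), and Pld6 (731 to 959) overlapped Piwil2 (742 to 838). There Mov10l1 (304 to 358) also overlapped Henmt1 (235 to 335), unlike in WT.

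**Figure D2:**
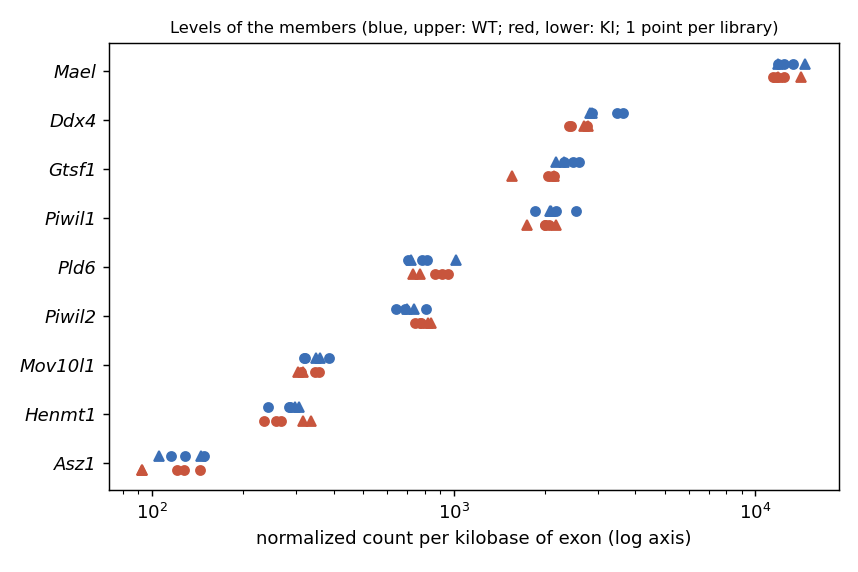
Normalized count per kilobase of exon on a log axis for each member, with 1 point per library (blue and upper, WT; red and lower, KI; circles, libraries 1 to 3; triangles, libraries 4 and 5). Mael stands highest at a mean of 12817 in WT and Asz1 lowest at 128, and the means of the members keep the same order in KI.

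Promoters were read because many piRNA pathway genes are known to be driven by the transcription factors A-MYB, encoded by Mybl1, and TCFL5, a factor of the family that binds E-boxes. RefSeq gives a promoter window of 300 bases around the gene start (GRCm38.p6, the mm10 sequence) for 8 of the 9 members, 9 windows in all, since Pld6 has 2 gene starts. The palindromic E-box CACGTG, which reads alike on both strands, lay in 5 of the 9 windows, those of Mael, Ddx4, Piwil1 (2 copies), Mov10l1 and the upstream start of Pld6, and in 7.15% of 32851 windows of all genes. The letters CAACNG or TAACNG, read on both strands as a core of MYB sites, were in 5 of 9 windows and in 49.7% of all windows. GCGGGAA, an E2F-type motif read on both strands, was in 1 window, that of Ddx4, and in 4.6% of all. The members' windows were also richer in CG pairs, with a median of 20 against 7, and CACGTG holds such a pair. A match describes letters and not a bound site. Of the windows below, Mael, Ddx4 and Piwil1 have the E-box in capitals, and Gtsf1, whose window has none, is shown beside them. They lie at chr1:166238695-166238994 (minus strand), chr13:112652261-112652560 (minus), chr5:128735996-128736295 (plus) and chr15:103430378-103430677 (minus), and each is written in the direction of its gene.
Mael: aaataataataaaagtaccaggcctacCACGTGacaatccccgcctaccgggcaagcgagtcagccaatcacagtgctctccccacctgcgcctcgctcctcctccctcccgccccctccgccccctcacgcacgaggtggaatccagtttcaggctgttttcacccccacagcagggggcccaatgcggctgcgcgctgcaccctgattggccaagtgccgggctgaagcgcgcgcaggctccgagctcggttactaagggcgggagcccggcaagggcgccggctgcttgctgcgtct
Ddx4: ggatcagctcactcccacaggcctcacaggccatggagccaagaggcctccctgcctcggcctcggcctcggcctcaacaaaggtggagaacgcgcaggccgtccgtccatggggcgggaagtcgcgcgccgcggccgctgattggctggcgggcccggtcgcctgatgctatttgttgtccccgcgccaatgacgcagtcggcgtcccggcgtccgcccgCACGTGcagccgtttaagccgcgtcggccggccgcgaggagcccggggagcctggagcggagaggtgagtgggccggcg
Piwil1: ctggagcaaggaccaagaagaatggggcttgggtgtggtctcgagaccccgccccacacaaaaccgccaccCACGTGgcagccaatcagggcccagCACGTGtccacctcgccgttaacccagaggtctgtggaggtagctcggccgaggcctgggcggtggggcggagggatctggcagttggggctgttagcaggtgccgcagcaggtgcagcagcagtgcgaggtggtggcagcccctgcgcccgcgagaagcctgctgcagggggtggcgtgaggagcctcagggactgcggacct
Gtsf1: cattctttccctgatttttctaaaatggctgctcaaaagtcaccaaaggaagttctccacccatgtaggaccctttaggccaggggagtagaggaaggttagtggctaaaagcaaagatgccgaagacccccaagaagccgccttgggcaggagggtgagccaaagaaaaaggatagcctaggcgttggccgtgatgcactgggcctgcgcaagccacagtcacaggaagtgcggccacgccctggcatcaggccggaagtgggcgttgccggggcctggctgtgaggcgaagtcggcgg

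Among the PIWI proteins, Piwil1 encodes MIWI, the PIWI protein of pachytene spermatocytes and round spermatids, which is found in the chromatoid body. The gene spans chr5:128736246-128755474 on the plus strand of mm10. Its normalized counts in WT libraries 1 to 5 were 10248, 8796, 7545, 8424 and 8482, and in KI libraries 1 to 5 they were 8127, 8355, 8120, 7061 and 8840. The genotypes overlapped, with the highest library in WT and the lowest in KI. The log2 fold change was −0.10 (SE 0.10, 95% interval −0.31 to 0.12, limma adjusted p = 0.536).

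Piwil2 encodes MILI, which acts from spermatogonia to round spermatids and whose own slicing feeds secondary piRNA production. It lies at chr14:70372477-70436898 on the minus strand, and the RefSeq genes Gm22725 and Gm24890 lie within it. WT libraries had 4267, 3632, 3399, 3892 and 3706 normalized counts, and KI libraries had 4102, 4091, 3922, 4431 and 4349. All KI libraries were above 4 of the 5 WT libraries, and WT library 1 reached into the KI range. The log2 fold change was 0.15 (SE 0.09, 95% interval −0.04 to 0.33, limma adjusted p = 0.245). Scaling changed this result. Relative to library totals the log2 difference was 0.38 (limma adjusted p = 0.00276) and by the upper quartile 0.24 (adjusted p = 0.0388). By spermatocyte markers it was 0.29 (adjusted p = 0.295) and by TMM 0.14 (adjusted p = 0.259). The median of all genes itself moved to 0.25 by library totals, 0.12 by the upper quartile and 0.17 by spermatocyte markers.

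The ratio of the PIWI transcripts within a library does not depend on scaling, and it was lower in KI. Piwil1 had 2.40, 2.42, 2.22, 2.16 and 2.29 times the normalized count of Piwil2 in the WT libraries, and 1.98, 2.04, 2.07, 1.59 and 2.03 times in the KI libraries. Every KI library was below every WT library, with means of 1.94 ± 0.199 and 2.30 ± 0.112 (SD, n = 5 each). The log2 difference was −0.25 (exact two-sided permutation test over 252 arrangements, p = 0.00794, the smallest that 5 against 5 can give). Of the ratios planned among PIWI genes this was the only 1 computed, because Piwil4 was not analysed. Over all 36 pairs of members, described after this ratio was seen, 3 did not overlap between genotypes. The share among pairs of all tested genes was not computed, so these pairs cannot be called unusual. Of single genes, 17.7% did not overlap. All 3 were among the 8 pairs with Piwil2, and Piwil2 to Ddx4 (log2 difference 0.40) and Piwil2 to Gtsf1 (0.40) differed more than the PIWI ratio. Paired by library number, the difference in the PIWI ratio gave p = 0.0625 by an exact sign-flip permutation test, the smallest that 5 pairs allow. Within libraries 1 to 3 the difference was −0.21, and within libraries 4 and 5 it was −0.31, in sets too small to pass a threshold (smallest exact p, 0.1 and 0.333). Round spermatid markers, whose cells contain MIWI, were lower in KI over the same libraries, and their part in the ratio was not tested.

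**Figure D3:**
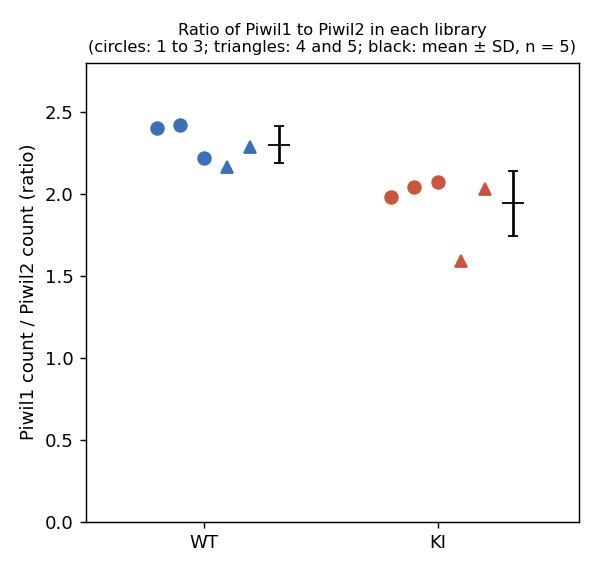
Ratio of the Piwil1 to the Piwil2 normalized count in each library (circles, libraries 1 to 3; triangles, libraries 4 and 5; black, mean ± SD, n = 5). The 5 WT libraries lie at 2.16 to 2.42 and the 5 KI libraries at 1.59 to 2.07, with no overlap.

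Members for germ granules came next in role. Ddx4 encodes the DEAD-box helicase VASA, a germ cell marker and a constituent of germ granules that helps pass piRNA precursors between PIWI proteins. It lies at chr13:112598333-112652310 on the minus strand. WT libraries had 10336, 9863, 8150, 8033 and 8161 normalized counts and KI libraries 7893, 6887, 6991, 7905 and 7676. Every KI library was below the lowest WT library, though WT libraries 3 to 5 stood close above KI libraries 1 and 4. The log2 fold change was −0.25 (SE 0.10, 95% interval −0.46 to −0.03), and the limma adjusted p of 0.0918 missed the threshold. With the library number as a block it was 0.0490. Libraries 1 to 3 alone gave −0.38 (limma adjusted p = 0.00525) and libraries 4 and 5 gave −0.06 (adjusted p = 0.852). Relative to library totals the difference was −0.019 (adjusted p = 0.873), by spermatocyte markers −0.10 (0.722) and by the upper quartile −0.15 (0.240). Leaving out 1 library at a time, the adjusted p was 0.0738 to 0.223.

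Mael encodes Maelstrom, a germ granule protein with an HMG box that is needed for transposon silencing and for the processing of pachytene piRNA precursors. Its span is chr1:166201385-166238744 on the minus strand. Normalized counts were 18342 to 22628 in WT (19814 ± 1815, SD, n = 5) and 17610 to 21937 in KI (19057 ± 1702, n = 5). Both genotypes had their highest value in library 4, and the ranges nearly coincided. The log2 fold change was −0.06 (SE 0.10, 95% interval −0.28 to 0.16, limma adjusted p = 0.7504).

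Gtsf1 encodes a small zinc finger protein that binds PIWI proteins and assists their cleavage of targets. It spans chr15:103402459-103430427 on the minus strand and overlaps the RefSeq gene Gm52195. The WT libraries had 3221, 3361, 3006, 3001 and 2810 normalized counts, against 2764, 2661, 2772, 2769 and 2017 in KI. KI library 5 was far below the other KI libraries, and the lowest WT library was only just above the highest KI library. The log2 fold change was −0.25 (SE 0.10, 95% interval −0.47 to −0.04), with a limma adjusted p of 0.0889, over the threshold. It was −0.17 without KI library 5 (adjusted p = 0.185). With the library number as a block the adjusted p was 0.0220, with a term for libraries 1 to 3 against 4 and 5 it was 0.0300, and within libraries 1 to 3 the log2 fold change was −0.22 (limma adjusted p = 0.0275), whereas libraries 4 and 5 gave −0.30 (adjusted p = 0.282). Scaling lessened this difference too, to −0.024 relative to library totals (adjusted p = 0.857), −0.11 by spermatocyte markers (0.665) and −0.16 by the upper quartile (0.238).

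Whether reads were counted by strand is not stated, so members that overlap other genes (Piwil2, Gtsf1 and Mov10l1) may share reads with them.

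**Figure D4:**
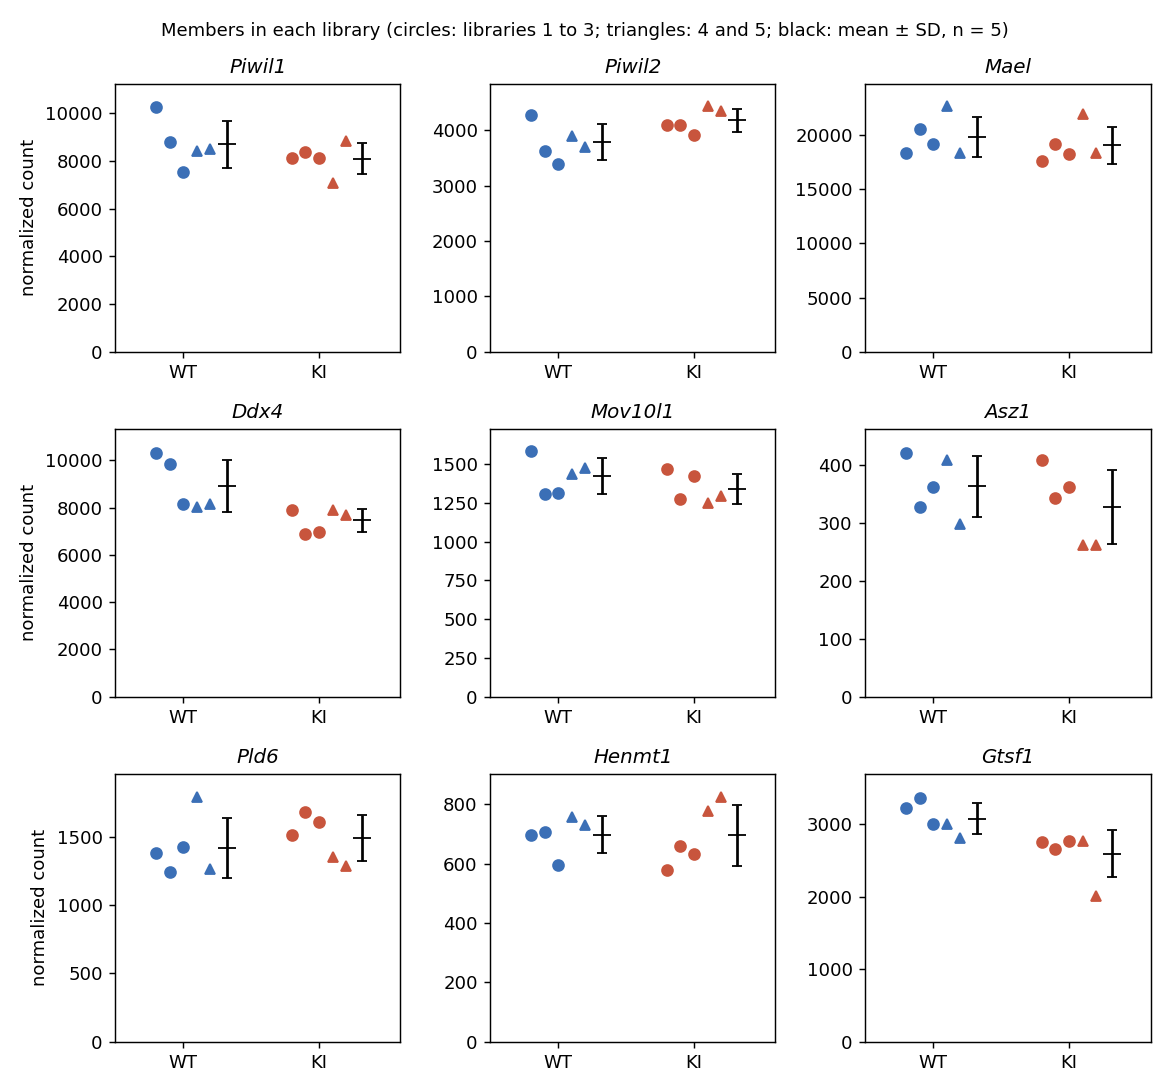
Normalized count of each of the 9 members in every library (blue, WT; red, KI; circles, libraries 1 to 3; triangles, libraries 4 and 5; black, mean ± SD, n = 5), each panel from 0. The genotypes overlap in 7 panels and part in those of Ddx4 and Gtsf1, where KI library 5 stands lowest at 2017.

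None of the genes of primary processing passed the threshold over all libraries. Mov10l1 encodes the helicase that hands precursors to the processing machinery, and lies at chr15:88982994-89055152 on the plus strand, overlapping Gm23737. It had 1303 to 1583 normalized counts in WT and 1247 to 1465 in KI, with a log2 fold change of −0.08 (SE 0.09, 95% interval −0.27 to 0.10, limma adjusted p = 0.554). Pld6 encodes a mitochondrial nuclease, MitoPLD, that cuts piRNA precursors, and lies at chr11:59783893-59787657 on the minus strand. Its counts were 1242 to 1790 in WT and 1284 to 1685 in KI, and the log2 fold change was 0.07 (SE 0.11, 95% interval −0.17 to 0.31, adjusted p = 0.700). The sets of libraries went in opposite directions for Pld6. Libraries 1 to 3 gave 0.25 (limma adjusted p = 0.0278) and libraries 4 and 5 gave −0.19 (adjusted p = 0.533), and the difference between the sets was not tested.

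Asz1 encodes GASZ, a scaffold of the intermitochondrial cement on the mitochondrial surface. It lies at chr6:18050964-18109061 on the minus strand and was the least abundant member, with 297 to 421 normalized counts in WT and 262 to 409 in KI. Its log2 fold change was −0.16 (SE 0.14, 95% interval −0.46 to 0.14, limma adjusted p = 0.475). KI libraries 4 and 5 (263 and 262) were below KI libraries 1 to 3 (409, 342 and 361), and the log2 fold change, 0.01 among libraries 1 to 3, was −0.41 among libraries 4 and 5.

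Henmt1 encodes the methyltransferase that protects the end of mature piRNAs, at chr3:108940084-108960776 on the plus strand. WT libraries had 594 to 758 normalized counts (698 ± 62.5, SD, n = 5) and KI libraries 580 to 825 (695 ± 103, n = 5). Here the KI libraries parted the other way, with libraries 4 and 5 (779 and 825) above libraries 1 to 3 (580, 661 and 633). The log2 fold change over all libraries was −0.01 (SE 0.11, 95% interval −0.25 to 0.22, limma adjusted p = 0.955).

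Other genes of the pathway were taken from a list of 31, of which 29 had a row and passed the filter on low counts, and Dnmt3c and Spocd1 were not analysed here. Of the 29, 2 were called lower in KI, 0 were called higher, and 2 more were higher at an adjusted p under 0.05 without reaching a fold change of 1.5. The called share of 6.9% compares with 14.4% of all tested genes, the share of 13.8% at an adjusted p under 0.05 with 22.9%, and the share of 10.3% (3 genes) that did not overlap between genotypes with 17.7%. With the library number as a block, 6 of the 29 had an adjusted p under 0.05. The median log2 fold change of the list was −0.02.

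Kif17, which encodes a kinesin motor reported to move with MIWI and the transcriptional coactivator ACT in spermatids, changed most. WT libraries had 6817, 8011, 8113, 6597 and 7570 normalized counts and KI libraries had 3200, 3579, 3368, 4763 and 4360. Every KI library was far below the lowest WT library, and KI libraries 4 and 5 were the highest of their genotype. Its mean fell from 7422 ± 688 to 3854 ± 675 (SD, n = 5 each), and the log2 fold change was −0.96 (SE 0.12; adjusted p = 3.23e-05 by limma). It fell within libraries 1 to 3 (−1.17) and within libraries 4 and 5 (−0.63, limma adjusted p = 0.0147). Round spermatid markers were lower in KI too. Within KI, however, each of them was lowest in library 5, and all but Gapdhs next lowest in library 4, where Kif17 was highest. Their part in the Kif17 values was not tested.

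Dnmt3l, which encodes a cofactor of de novo DNA methylation at transposons, was the other called gene. WT libraries had 162, 151, 134, 220 and 194 normalized counts and KI libraries had 95.6, 111, 106, 118 and 112. All KI libraries were below all WT libraries, and the log2 fold change was −0.64 (SE 0.14, limma adjusted p = 0.00414). Without WT library 4 it was −0.55, under the fold limit, and scaled on spermatocyte markers it was −0.50 with an adjusted p of 0.165. The gene overlaps Aire and may share reads with it.

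The genes that were higher at an adjusted p under 0.05 were Prmt5, the arginine methyltransferase that makes the marks Tudor proteins read on PIWI proteins, and Elavl1, an RNA-binding protein. Prmt5 went from 643 ± 54.2 to 808 ± 82.5 normalized counts (SD, n = 5; log2 fold change 0.33, SE 0.10, limma adjusted p = 0.0235), and its adjusted p was over 0.05 without WT library 1 (0.0631), WT library 5 (0.0528) or KI library 5 (0.0515). Elavl1 had 1553 ± 71.3 and 1831 ± 129 (log2 fold change 0.24, SE 0.08, adjusted p = 0.0492), and its adjusted p was over 0.05 without any 1 of the libraries except KI library 3 (up to 0.110), with edgeR (0.0522) and with TMM scaling (0.0547). Neither was called, and Elavl1 but not Prmt5 had no overlap between genotypes.

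Most of the list changed little. The 8 Tudor domain proteins, scaffolds that hold PIWI proteins in germ granules, had log2 fold changes of −0.14 to 0.01, with 0 called. The 3 genes for transcription of piRNA loci, Mybl1, Btbd18 and Tcfl5, had values of −0.14 to 0.06, and the 3 genes of nuclear silencing, Dnmt3l among them, −0.64 to 0.28. The 6 genes of MIWI partners in spermatids ranged from −0.28 to 0.24. The 9 genes listed under piRNA processing ranged from −0.96 to 0.33, with Prmt5 the highest. The lowest was Kif17, listed there though it encodes a motor, and the next lowest was Hsp90aa1 (−0.15).

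**Figure D5:**
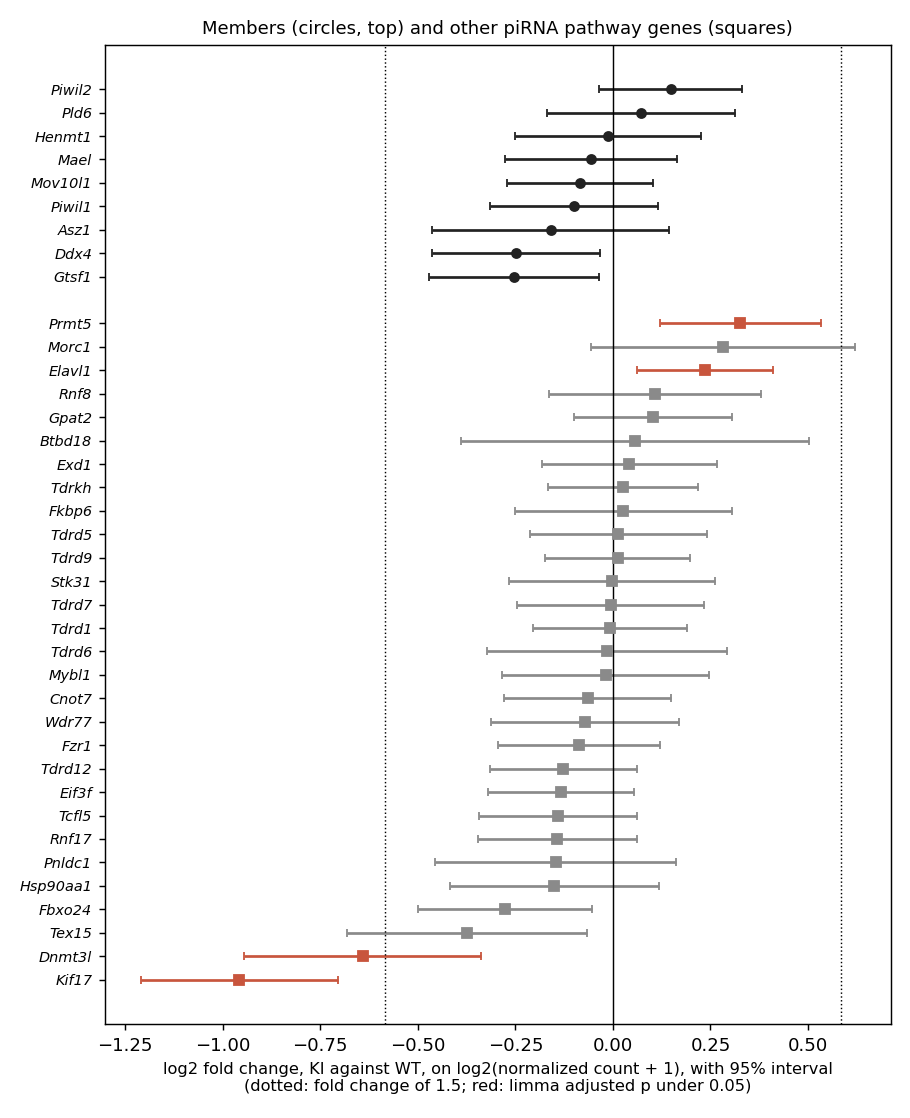
Log2 fold change of KI against WT on log2(normalized count + 1) with its 95% interval for the 9 members (circles) and 29 other pathway genes (squares), dotted lines marking a fold change of 1.5 and red an adjusted p under 0.05 in limma. All members lie inside the dotted lines, and Kif17 (−0.96) and Dnmt3l (−0.64) lie beyond them.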

How the data were processed

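Germ cells of 5 WT and 5 KI mice gave 1 library each. Per the labels and the study's methods, reads were trimmed and aligned to mm10 (STAR), and the authors counted them on RefSeq genes (Partek E/M) and deposited a signal per gene and library, the count divided by a DESeq2 size factor. Dividing by the step between low values returned whole reads (100% within 0.1 of a read, under 5000 reads). Every column was assigned to a library (0 not assigned). A gene without reads could still have up to 3 reads, or 2.61 to 3.62 normalized counts, counting error only.

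The deposited values were tested as log2(value + 1) with limma 3.58.1 (R 4.3.3) with a variance trend, by genotype alone, on genes that passed filterByExpr of edgeR 4.0.16 on the recovered reads. The test was checked on simulated data. Each library is a separate mouse, so p-values measure the spread between mice. The edgeR quasi-likelihood test and DESeq2 1.42.0, both on recovered reads, pseudocounts of 0.1 and 10, other filters, scalings and thresholds, a replicate block, a term for libraries 1 to 3 against 4 and 5, each of these sets alone and leaving out each library were alternatives. Those for Ddx25, Kif17, Dnmt3l, Prmt5 and Elavl1 were added after seeing the data. The PIWI ratio was tested by exact two-sided permutation (Python 3.11.15). Deviations from the genotype means correlated across genes between equally numbered WT and KI libraries (r = 0.306, 0.105, 0.280, 0.216 and 0.462, each over 0.1). Unequally numbered libraries were not correlated, so a pairing cannot be told from the difference between libraries 1 to 3 and 4 and 5. The numbers come from the labels, which state no pairing, and were used as a block only among the alternatives.

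Positions are those of the authors' table in mm10, with exon lengths from GENCODE and promoters from RefSeq (GRCm38.p6). All members, called pathway genes and Ddx25 were to be named. Prmt5, Elavl1 and the uncalled genes given as examples were chosen after their values were seen. The members, the pathway list and the marker lists were chosen with earlier results of these data known.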

Additional observations from a re-analysis of the deposited data

Results flagged for a closer look

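Of 30 sets of 5 libraries examined for a library far from the rest, 2 held one, and chance flags about 1 set in 20. In the KI libraries, Gtsf1 was lowest in library 5, at 2017 normalized counts, with a gap to the next library of 0.854 of the whole range (Dixon's test at 95%). The ratio of Piwil1 to Piwil2 was lowest in KI library 4, at 1.59, with a gap of 0.813 of the range. Without KI library 4 the log2 difference in this ratio was −0.18 (exact permutation test, p = 0.0159).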

How the results depend on the processing

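No member was called under any of the alternatives run. Of 225 values of single members under alternatives, 196 kept their direction and their side of the adjusted p threshold, 9 passed it and 20 changed sign. The 225 include a stricter adjusted p threshold, which reuses the main fit and could change nothing for a member. Other pseudocounts and filters on low values moved the members little. Relative to library totals, the upper quartile and spermatocyte markers, the median of all genes was 0.25, 0.12 and 0.17, that of the members 0.15, 0.01 and 0.06, and 73.1%, 55.8% and 55.9% of calls were higher in KI, against 42.7%. Under these scalings Mael was 0.17, 0.038 and 0.091, Mov10l1 0.15, 0.010 and 0.063, and Henmt1 0.22, 0.081 and 0.13. Piwil1 was 0.13 by library totals and 0.047 by spermatocyte markers, and Asz1 0.069 by library totals. In libraries 1 to 3 Asz1 was 0.0070, and in libraries 4 and 5 Pld6 was −0.19 and Henmt1 0.11. With 1 library left out Henmt1 ranged from −0.077 to 0.050.

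All genes called numbered 2209, 1235 with a mean of at least 100, 969 at a fold change of 2, 3529 by adjusted p alone, and 1971 to 2303 with 1 library left out. Pathway genes called numbered 1 by library totals, upper quartile, spermatocyte markers and libraries 1 to 3, 0 at a fold change of 2, 4 by adjusted p alone, and 1 to 2 with 1 library left out. The PIWI ratio was −0.21 in libraries 1 to 3, −0.31 in libraries 4 and 5 and −0.25 with the replicate block (exact permutation p = 0.1, 0.333 and 0.0625, each the smallest possible), and −0.27 to −0.18 with 1 library left out. The block brought Ddx4 (adjusted p = 0.0490) and Gtsf1 (0.0220) past the adjusted p threshold, without a 1.5-fold change, and took no other member past it. The cause was not tested in any of these.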
